A study of Homo sapiens with 36 samples.

Results

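The first response of PERK KO cells to the start of cardiac differentiation was measured by RNA-seq, as 3 libraries of day 1 set against 3 libraries of day 0. These 6 libraries were taken by their labels from the 36 of the series, and all genes of the deposited matrix entered the comparison. The sample labels give days 0, 1, 2, 3, 5 and 10, while the design text names collection on days 0, 2 and 6, so day 1 is the day on the labels. The cells are H1, an established line of human embryonic stem cells, labelled PERK KO or wild type. At day 0 they were undifferentiated cells in E8 medium, and at day 1 they had been in cardiac differentiation medium with CHIR99021, a GSK3 inhibitor that activates WNT signalling. The groups used are PERK KO day 1, PERK KO day 0, wild type day 1 and wild type day 0, with 3 libraries each. Both genotypes are H1 and both were given CHIR99021 together with a change of medium, so the effects of the inhibitor, the medium and time cannot be told apart. The records used here give neither how PERK was targeted nor how many clones were used. Nor do they say that replicates were separate cultures, so p-values measure only the spread between libraries. In the main fit that spread is estimated over all 36 libraries of the series.

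When WNT ligands bind their receptors, or when GSK3 is inhibited, beta-catenin escapes destruction and enters the nucleus, where it acts with TCF and LEF factors on target genes. Many of those targets, such as AXIN2, NKD1 and the DKK genes, dampen the pathway again. In pluripotent cells the same signal, together with NODAL, turns on the genes of the primitive streak, the site where mesoderm and endoderm form in the embryo. PERK, the product of EIF2AK3, spans the membrane of the endoplasmic reticulum (ER). It phosphorylates eIF2 under ER stress and so raises ATF4 and its targets, a programme called the integrated stress response (ISR), which other eIF2 kinases can also start.

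The 6 libraries held 14.0 M to 22.1 M counts, and levels are given as CPM, counts scaled to library size with TMM factors. One library stood apart: the mean length of the transcripts counted was 2028 nt in PERK KO day 0 replicate 2, while it was 2838 nt in day 0 replicate 1, 2783 nt in day 0 replicate 3 and 2819 to 2937 nt at day 1. Its counts differed from those of the other day 0 replicates with a chi-square per degree of freedom of 163.1 and 150.7, against 4.39 between that pair and 4.03 to 12.5 within day 1. Many of the results that rest on it are given with and without it. Defining markers fitted the labels: the summed level of 9 human embryonic stem cell markers was 5272 to 5967 TPM (transcript levels scaled for length and depth) at day 1 and 4830 to 6173 TPM at day 0, and that of the streak markers TBXT, MIXL1 and EOMES was 585 to 699.6 TPM at day 1 and 0.58 to 1.10 TPM at day 0. Most of the stem cell sum was POU5F1, at 3191 to 3523 TPM at day 1 and 3385 to 3570 TPM at day 0, so that sum says little about the other stem cell markers. PAX6, SOX1, SIX3, SOX17, HNF4A, PECAM1, CDH5, TFAP2A, CGA, MYH6, NPPA and COL3A1 stayed at or under 0.22 TPM in all 6 libraries. Over whole marker lists of 3 genes each, neuroectoderm, endothelium and amnion summed to at most 0.42 TPM in any library. The endoderm sum, 3.78 to 4.87 TPM at day 1 and 0 to 0.10 TPM at day 0, was nearly all FOXA2 at day 1, while FOXA2 was listed at 0 at day 0. The cardiomyocyte sum, 2.35 to 3.85 TPM at day 1 and 11.0 to 12.1 TPM at day 0, was nearly all TNNT2, and the fibroblast sum, 8.81 to 11.7 TPM at day 1 and 8.67 to 32.3 TPM at day 0, was mostly COL1A1.

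The gene of PERK itself, EIF2AK3, lies on the minus strand of chromosome 2 (GRCh38, 88556741 to 88627576). It was still counted in PERK KO, with 14.9, 13.8 and 15.1 CPM at day 1 and 20.1, 11.9 and 18.7 CPM at day 0. The 2 days overlapped, and the change was not called (log2 fold change -0.22 ± 0.20, adjusted p = 0.398). The overlap came from day 0 replicate 2 alone. Leaving that library out of the shared fit gave no call either. A fit of the 5 other compared libraries, chosen after seeing the data, called EIF2AK3 lower (log2 fold change -0.40, adjusted p = 0.00914 in edgeR's quasi-likelihood test). Gene-level counts do not show whether a functional protein is made, so they check the label in neither direction.

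At day 1 against day 0, 8517 of 19772 genes tested were called in PERK KO, 43.1% of them, at an adjusted p under 0.05 in edgeR's quasi-likelihood test with Benjamini-Hochberg (BH) adjustment, which is the test behind every adjusted p that follows. Of these, 3564 were higher (18.0%) and 4953 lower (25.1%), and 4311 changed at least 2-fold (21.8%). In 9593 genes (48.5%) the CPM of the 3 day 1 libraries and the 3 day 0 libraries did not overlap. In bulk RNA, fewer cells of a type and less RNA per cell cannot be told apart. With so many calls, a share of called members in a gene list has to be read against these percentages. Without PERK KO day 0 replicate 2, 6903 of 20331 genes were called (34.0%), 3037 higher (14.9%) and 3866 lower (19.0%). Fits of the compared libraries alone called 4268 genes with all 6 (1964 higher, 2304 lower) and 9171 without replicate 2 (4613 higher, 4558 lower). The fits that called 8517 and 6903 genes shared 5973 calls, all with the same sign. These were 70.1% of the 8517 calls and 86.5% of the 6903 made without replicate 2. Of the 4311 calls of at least 2-fold, 81.7% were also called without it, and of the 1510 calls of at least 4-fold, 88.9%. Beside these, wild-type cells gave 8819 calls between day 1 and day 0 (44.6%; 20.9% higher and 23.7% lower), and the day 1 response differed between PERK KO and wild type in 4559 genes (23.1%), 2016 with a higher log2 fold change in PERK KO (10.2%) and 2543 with a lower one (12.9%). Without PERK KO day 0 replicate 2 the balance turned: 4907 genes differed (24.1%), 2506 with a higher log2 fold change (12.3%) and 2401 with a lower one (11.8%).

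WNT pathway genes that act back on the pathway rose together. Of 18 measured feedback and target genes, 15 were called higher and 2 lower, with a median log2 fold change of 4.74 against -0.06 over all genes tested. The median was 4.72 without PERK KO day 0 replicate 2, with the same counts. SP5, a zinc-finger repressor in the feedback of the pathway, had 383, 395 and 327 CPM at day 1 and 0, 0.0918 and 0.175 CPM at day 0. AXIN2, a scaffold of the beta-catenin destruction complex, had 269.6, 270.4 and 248 CPM at day 1 against 19.4, 14.1 and 16.6 CPM at day 0, a log2 fold change of 3.97 ± 0.15 (adjusted p = 2.6e-19). For both genes every day 1 library lay above every day 0 library. The AXIN2 response was smaller than in wild type (difference of log2 fold changes -1.18 ± 0.19, adjusted p = 2.42e-05), with 450.2 ± 6.77 CPM at day 1 and 12.7 ± 1.96 CPM at day 0 in wild type, and that of SP5 missed the threshold for a difference (adjusted p = 0.581).

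Further feedback genes followed. NKD1, an inhibitor of Dishevelled, reached 376, 391 and 364 CPM at day 1, against 12.5, 5.05 and 17.0 CPM at day 0 (log2 fold change 5.01 ± 0.25). LEF1, a DNA-binding partner of beta-catenin, had 66.1, 62.9 and 61.2 CPM at day 1 and 0.185, 0.276 and 0.467 CPM at day 0 (log2 fold change 7.62 ± 0.31). TNFRSF19, APCDD1, NOTUM and RNF43 rose by log2 fold changes of 6.94, 5.12, 4.47 and 3.82. The secreted antagonist DKK1 rose to 38.2, 43.4 and 27.4 CPM at day 1, against 0.123, 0.459 and 0.117 CPM at day 0. Its log2 fold change of 7.42 ± 0.48 was smaller than that of wild type, where day 1 reached 892 ± 64.0 CPM (SD, n = 3), a difference of responses of -5.22 ± 1.17 (adjusted p = 0.00151, and 0.0597 without PERK KO day 0 replicate 2). DKK4 showed the same order of levels at day 1, 17.4, 20.0 and 13.1 CPM in PERK KO and 316 ± 27.9 CPM in wild type, and had no count at day 0 in either genotype, so that the PERK KO rise was at least 242-fold (floor of 3 counts over the group). The 2 members called lower were MYC, a growth regulator, at 23.3, 25.5 and 20.4 CPM at day 1 and 55.0, 69.0 and 63.9 CPM at day 0, and BAMBI, a decoy receptor for BMP and activin, at 7.52, 7.57 and 6.71 CPM at day 1 and 13.1, 19.5 and 12.3 CPM at day 0.

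**Figure D1:**
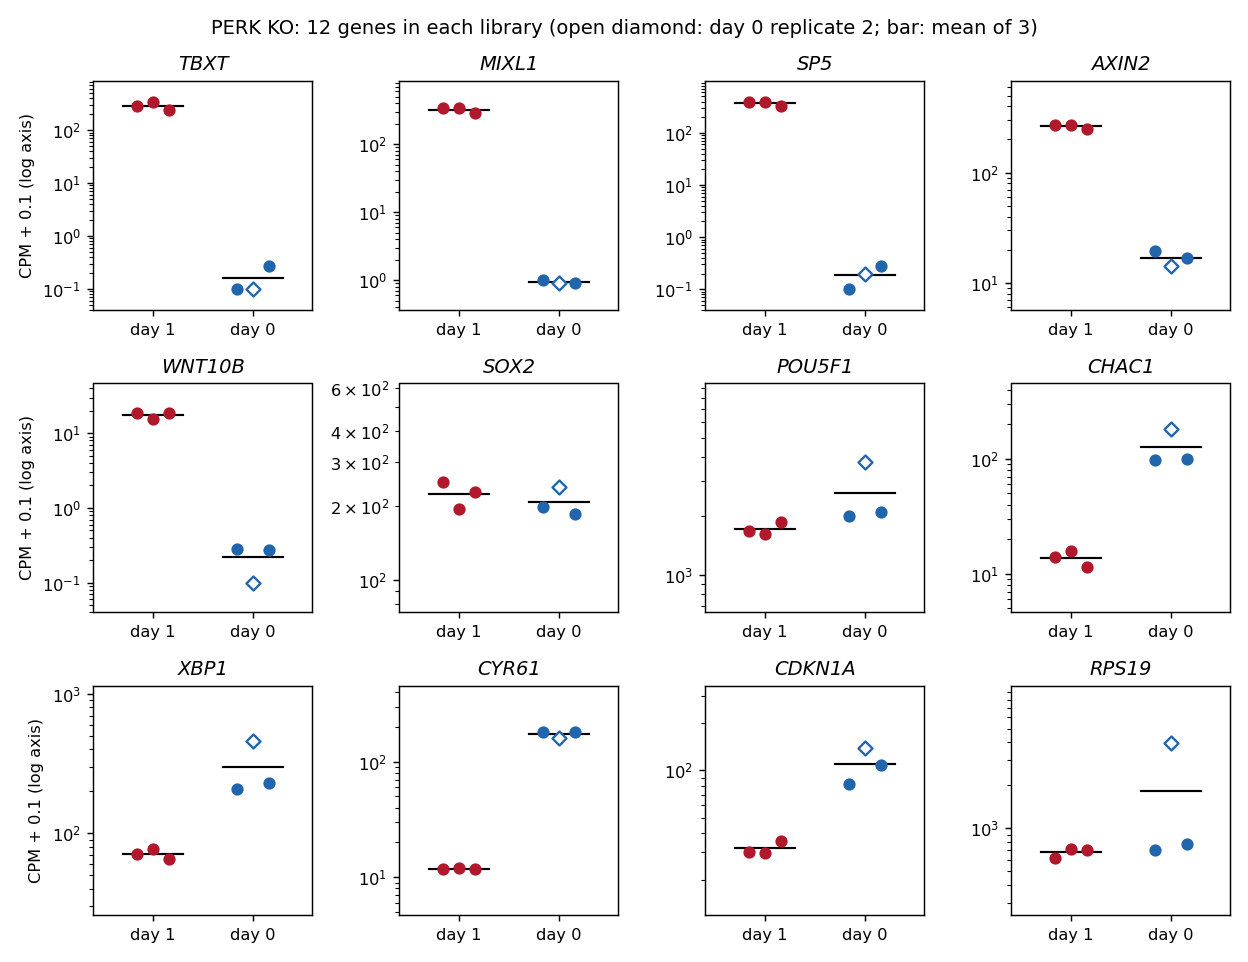
Level of 12 genes in each PERK KO library (CPM + 0.1 on a log axis), day 1 left and day 0 right, with circles for libraries, an open diamond for day 0 replicate 2 and a bar for the mean of 3. TBXT, MIXL1, SP5, AXIN2 and WNT10B lie higher at day 1 in every library, CHAC1, XBP1, CYR61 and CDKN1A lie lower, SOX2 overlaps, and in RPS19 and POU5F1 the diamond stands above the other day 0 libraries.

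Among the ligands and receptors, some members rose and others fell. Of 16 WNT ligands 13 passed the filter on low counts, and 6 were called higher and 1 lower (median log2 fold change 0.80). WNT5B, a ligand of the beta-catenin-independent branch, had 129, 146 and 128 CPM at day 1 and 2.78, 6.33 and 3.09 CPM at day 0 (log2 fold change 5.09 ± 0.32). WNT10B had 18.4, 15.6 and 18.4 CPM at day 1 and 0.185, 0 and 0.175 CPM at day 0, with no overlap, and its log2 fold change of 6.96 ± 0.49 exceeded that of wild type by 3.66 ± 1.09 (adjusted p = 0.0144). This difference was not called without wild type day 0 replicate 2 (3.54, adjusted p = 0.0648) or replicate 3 (2.94, adjusted p = 0.19). In wild type WNT10B stood at 1.16 ± 0.177 CPM at day 1. WNT3, the ligand required for the streak in the mouse, had 12.1, 14.4 and 10.7 CPM at day 1 and 7.47, 6.70 and 7.18 CPM at day 0. Its rise was smaller than in wild type (difference -1.74 ± 0.21, adjusted p = 6.19e-07). WNT5A had 3.45, 2.26 and 1.92 CPM at day 1 and 3.27, 0.735 and 1.98 CPM at day 0 and was not called in PERK KO (adjusted p = 0.536). Wild type held 41.4 ± 5.41 CPM of it at day 1 and 1.78 ± 0.574 CPM at day 0, and the responses differed by -4.26 ± 0.46 (adjusted p = 7.92e-08).

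WLS, the carrier that brings WNT proteins to the cell surface, rose to 225, 249 and 221 CPM at day 1, against 6.29, 4.68 and 5.95 CPM at day 0 (log2 fold change 5.35 ± 0.33). Of 18 receptors and co-receptors 7 were called higher and 3 lower, 5 and 4 without PERK KO day 0 replicate 2. FZD10 had 55.0, 60.0 and 45.8 CPM at day 1 and 0.987, 0.551 and 2.16 CPM at day 0, and FZD1 had 19.4, 18.5 and 17.1 CPM at day 1 and 3.02, 1.75 and 2.45 CPM at day 0. The frizzleds FZD5, FZD7 and FZD8 fell, with FZD7, the most counted of them, at 144, 143 and 132 CPM at day 1 and 249, 294 and 250.4 CPM at day 0. ROR2, a receptor for WNT5A, rose by 2.49 on the log2 scale, and its relative ROR1 had 112, 96.5 and 111 CPM at day 1 and 62.0, 44.4 and 50.8 CPM at day 0. ROR1 was called (adjusted p = 0.0107), but not without PERK KO day 0 replicate 2 (adjusted p = 0.0583). CTNNB1, which encodes beta-catenin, overlapped between the days at 411, 449.9 and 429.8 CPM at day 1 and 476, 396 and 420.4 CPM at day 0 (adjusted p = 0.992).

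TCF7L1, the TCF factor that represses WNT targets in stem cells, fell to 53.5, 55.4 and 55.5 CPM at day 1, against 174, 168 and 200.2 CPM at day 0. Wild type held 13.3 ± 2.17 CPM of it at day 1 and 317 ± 35.6 CPM at day 0, and the PERK KO fall, with a log2 fold change of -1.72 ± 0.15, was smaller (difference 2.85 ± 0.21, adjusted p = 3.84e-11). Of 12 secreted WNT inhibitors 10 passed the filter, and 6 were called lower and 1 higher, 4 and 1 without PERK KO day 0 replicate 2. SFRP1 had 119, 100.2 and 132 CPM at day 1 and 581, 437 and 598 CPM at day 0 (log2 fold change -2.20 ± 0.15), and SFRP2 and DKK3 fell, with log2 fold changes of -1.09 and -1.51. The member called higher was FRZB, at 4.97, 4.21 and 4.35 CPM at day 1 and 0.802, 2.57 and 0.759 CPM at day 0.

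Promoter sequences of 3 genes that rose are shown to set the letters of a known WNT motif beside the values. They are the 250 bases before the transcription start in RefSeq (GRCh38.p14), on the strand of the gene, and capitals mark the TCF/LEF motif letters CTTTGAT or CTTTGAA on either strand. SP5 lies on chromosome 2, plus strand, chr2:170715087-170715336, and holds 3 matches that start 148 to 84 bases before the start site. DKK1 is at chr10:52314031-52314280 and MIXL1, a streak gene described below, at chr1:226223414-226223663, both on the plus strand with 1 match each.
SP5: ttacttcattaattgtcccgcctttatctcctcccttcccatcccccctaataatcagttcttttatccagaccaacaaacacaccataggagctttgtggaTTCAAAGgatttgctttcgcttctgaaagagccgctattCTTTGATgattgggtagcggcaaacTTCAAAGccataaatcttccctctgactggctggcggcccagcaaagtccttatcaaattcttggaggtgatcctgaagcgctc
DKK1: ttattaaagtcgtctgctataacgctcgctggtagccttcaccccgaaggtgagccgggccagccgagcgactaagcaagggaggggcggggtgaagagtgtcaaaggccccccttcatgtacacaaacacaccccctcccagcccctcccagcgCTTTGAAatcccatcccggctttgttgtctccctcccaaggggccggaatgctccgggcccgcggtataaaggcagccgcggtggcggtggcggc
MIXL1: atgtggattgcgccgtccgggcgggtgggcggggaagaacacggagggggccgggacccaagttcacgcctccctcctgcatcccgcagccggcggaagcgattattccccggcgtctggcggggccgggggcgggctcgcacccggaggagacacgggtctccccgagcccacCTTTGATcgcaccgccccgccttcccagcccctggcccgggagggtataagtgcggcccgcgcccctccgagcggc
These letters occurred in 6.03% of the 27305 RefSeq promoters of this length, in 2 of the 10 WNT feedback promoters matched by symbol and in 3 of the 11 streak promoters matched, which were MIXL1, SP8 and CDX2. A match is a description of letters in this window only.

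Primitive streak genes rose, and those that define the streak had almost no counts at day 0. Of 18 measured members 15 were called higher and none lower, at a median log2 fold change of 4.60, or 4.34 with the 3 members without a day 0 count set at their lower bound. Without PERK KO day 0 replicate 2 the counts were the same and the median was 4.97. TBXT, the T-box factor that defines the streak, had 286, 338 and 238 CPM at day 1 and 0, 0 and 0.175 CPM at day 0. Its day 0 level rests on 3 counts over the group, and the ratio of day 1 to day 0 was 4151 (95% counting interval 1420 to 20130). MIXL1, a homeobox factor of streak mesendoderm, reached 338, 339 and 285 CPM at day 1, against 0.926, 0.826 and 0.817 CPM at day 0 (log2 fold change 8.53 ± 0.24, adjusted p = 5.27e-22). EOMES, a T-box factor of mesendoderm, had 117, 113 and 119 CPM at day 1 and 0.432, 0.276 and 0.642 CPM at day 0.

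EVX1, a homeobox gene of the posterior streak, had 65.0, 79.5 and 51.6 CPM at day 1 and no count at day 0, at least 941-fold. FOXA2, expressed in the anterior streak and endoderm, had 5.88, 6.35 and 7.58 CPM at day 1 and no count at day 0, at least 98.7-fold. The caudal genes CDX1 and CDX2 reached 134, 153 and 112 CPM and 159, 165 and 132 CPM at day 1, against 0, 0 and 0.117 CPM and 0.0617, 0.551 and 0.292 CPM at day 0. All of these groups were separate. The streak genes not called were SNAI1, CER1 and MESP1. SNAI1, a repressor of epithelial genes, had 13.0, 13.2 and 11.4 CPM at day 1 and 12.7, 12.5 and 8.81 CPM at day 0. CER1, a secreted NODAL and BMP antagonist, had 5.09, 5.98 and 4.09 CPM at day 1 and 3.95, 3.58 and 2.16 CPM at day 0, and MESP1, a factor of early cardiac mesoderm, had 0.339, 0.794 and 0.131 CPM at day 1 and 0.0617, 1.10 and 0.117 CPM at day 0.

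In wild type all 18 streak genes were called higher, and the response was called smaller in PERK KO for 9 of them and larger for none, where 12.9% of all genes had a lower response. Without PERK KO day 0 replicate 2 the response was called smaller for 8 and larger for none, where 11.8% of all genes had a lower one. The difference was -1.92 ± 0.34 for MIXL1 (adjusted p = 0.000131), -5.99 ± 0.96 for FGF17 (adjusted p = 2.95e-05; -9.46 without wild type day 0 replicate 3), -8.21 ± 1.29 for MESP1 (adjusted p = 2.41e-05) and -0.95 ± 0.23 for SNAI1 (adjusted p = 0.00275). At day 1 MIXL1 averaged 321 ± 31.2 CPM in PERK KO and 1475 ± 41.8 CPM in wild type (SD, n = 3 each). EOMES and CDX2 missed the threshold for a difference (adjusted p = 0.0574 and 0.402; EOMES passed it without PERK KO day 0 replicate 2, at 0.033), at 116 ± 2.97 and 152 ± 17.6 CPM in PERK KO at day 1, against 157 ± 11.6 and 216 ± 16.0 CPM in wild type at day 1. For TBXT the difference of responses was -1.19 ± 1.28 (adjusted p = 0.555), with day 0 at 0 or a few counts in both genotypes. Its day 1 means were 287 ± 50.2 CPM in PERK KO and 1041 ± 17.0 CPM in wild type.

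Some mesoderm genes that follow the streak rose, and most of the cardiac ones were not called. Of 16 cardiac mesoderm genes 4 were called higher, APLNR, GATA4, GATA6 and KDR, and none lower (median log2 fold change 0.16). Over all genes 18.0% were called higher and 25.1% lower, so the share of higher calls was not far from that of all genes. Without PERK KO day 0 replicate 2 the counts were 5 and 0, where 14.9% of all genes were called higher and 19.0% lower. APLNR, the apelin receptor of early mesoderm, had 13.8, 17.1 and 9.27 CPM at day 1 and 0.308, 0.276 and 0.525 CPM at day 0, against 125 ± 15.8 CPM at day 1 in wild type, a difference of responses of -3.16 ± 0.57 (adjusted p = 0.000158). GATA4, a zinc-finger factor of heart mesoderm, had 12.8, 11.6 and 9.10 CPM at day 1 and 0.617, 0.276 and 0.408 CPM at day 0, with 75.9 ± 3.38 CPM at day 1 in wild type (difference -3.91 ± 0.73, adjusted p = 0.000235). GATA6, a relative of GATA4, had 1.47, 1.40 and 0.871 CPM at day 1 and no count at day 0, at least 17.8-fold, and wild type held 81.2 ± 15.8 CPM at day 1. Of 12 paraxial mesoderm genes 4 were called higher and 4 lower, 4 and 3 without PERK KO day 0 replicate 2. With or without that library 6 had a lower log2 fold change in PERK KO than in wild type, with none higher. A lower response was called in 12.9% of all genes, 11.8% without that library. TBX6, which directs cells to paraxial mesoderm, had 8.53, 7.69 and 8.31 CPM at day 1 and 2.28, 2.75 and 2.57 CPM at day 0. The 12 HOX genes listed summed to 24.1, 26.7 and 18.0 CPM at day 1 and 0.185, 0.184 and 0.0584 CPM at day 0, with no overlap. Only 8 of them passed the filter on low counts.

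The pluripotency genes split. Of 22 measured members 11 were called lower and 3 higher, with a median log2 fold change of -0.53 (10 and 3, median -0.51, without PERK KO day 0 replicate 2). SOX2, a core factor of pluripotency and later of neural fate, was not called: it had 249, 194 and 226 CPM at day 1 and 197, 238 and 185 CPM at day 0, overlapping (log2 fold change 0.11 ± 0.20, adjusted p = 0.681). Its deposited TPM did not overlap and were higher at day 1, at 114.4 to 153.6 at day 1 and 73.3 to 109.4 at day 0. In wild type SOX2 was at 14.2 ± 3.99 CPM at day 1 and 257 ± 10.2 CPM at day 0, and the responses differed by 4.29 ± 0.30 (adjusted p = 3.44e-11), one of the 6 most significant positive differences. NANOG, its partner, fell to 66.5, 61.6 and 84.8 CPM at day 1, against 134, 159 and 133 CPM at day 0, less than in wild type (difference 0.99 ± 0.27, adjusted p = 0.007). With an offset for effective length in the fit neither call was made (fall of -0.53, adjusted p = 0.141, and difference of 1.07, adjusted p = 0.056), and the deposited TPM of NANOG overlapped, at 33.8 to 49.3 at day 1 and 25.4 to 58.4 at day 0.

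POU5F1, the third core factor, had 1683, 1614 and 1866 CPM at day 1 and 2004, 3787 and 2105 CPM at day 0. Its call (adjusted p = 0.0345) was lost without PERK KO day 0 replicate 2 (log2 fold change -0.25 ± 0.21, adjusted p = 0.389), and both POU5F1 and NANOG have copies elsewhere in the genome that can share reads. LIN28A, an RNA-binding protein of stem cells, overlapped at 1704, 1551 and 1866 CPM at day 1 and 1826, 1776 and 1878 CPM at day 0. THY1, a surface marker of these cells, fell to 70.4, 76.6 and 66.6 CPM at day 1, against 679, 937 and 739 CPM at day 0 (log2 fold change -3.46 ± 0.18), and UTF1 and PRDM14 fell, with log2 fold changes of -4.70 and -2.08. PODXL, a surface sialomucin, had 862, 922 and 859 CPM at day 1 and 1777, 1055 and 1780 CPM at day 0, a smaller fall than in wild type (difference 1.98 ± 0.24, adjusted p = 5.62e-07). Members called higher included KLF4 and SALL4. KLF4 had 4.52, 5.25 and 4.09 CPM at day 1 and 1.98, 0.918 and 1.58 CPM at day 0, while wild type fell to 1.54 ± 0.391 CPM at day 1, against 3.46 ± 0.279 CPM at day 0 (difference 2.75 ± 0.41, adjusted p = 1.15e-05). Over the list the PERK KO response was called higher than that of wild type for 9 genes and lower for 1, ZFP42. Without PERK KO day 0 replicate 2 the numbers were 10 and 2. Over all genes 10.2% had a higher and 12.9% a lower response, 12.3% and 11.8% without that library.

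**Figure D2:**
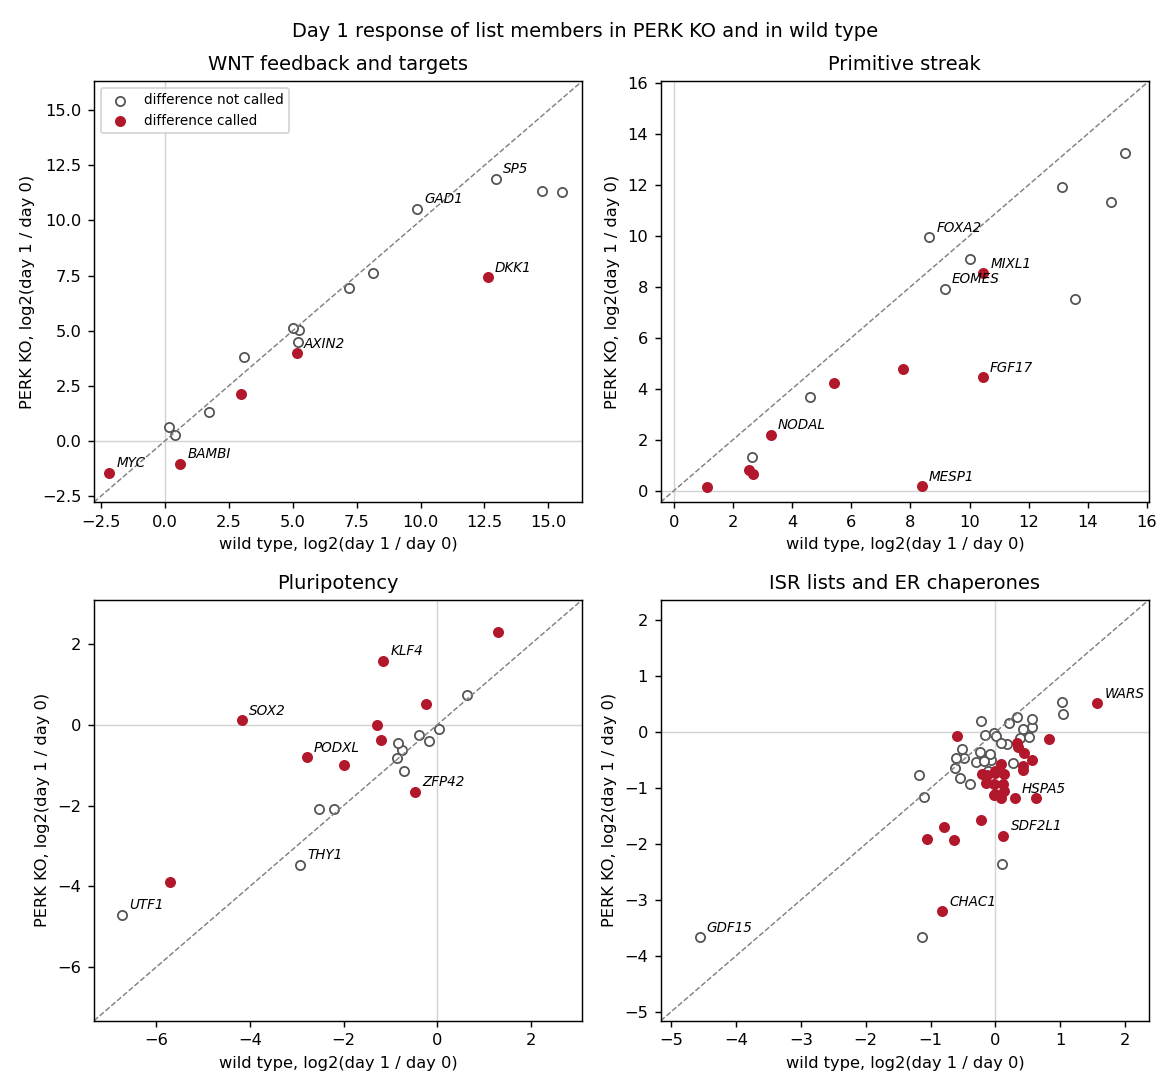
Log2 fold change of day 1 over day 0 in PERK KO (vertical) and in wild type (horizontal) for members of 4 groups of lists, with a dashed line of equal response and filled points where the difference of responses was called. Streak genes lie on or below the line except FOXA2, SOX2 lies near 0 in PERK KO and at -4.18 in wild type, and most ISR and ER members lie below 0 in PERK KO. Fold changes of genes without day 0 counts depend on the prior count of the fit.

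NODAL and BMP signalling genes changed in opposite directions within each class. NODAL, the ligand of mesendoderm, rose to 192, 225 and 191 CPM at day 1, against 26.6, 74.3 and 32.5 CPM at day 0 (log2 fold change 2.20 ± 0.29). BMP2 rose to 14.0, 16.0 and 10.0 CPM at day 1, against 0.617, 1.28 and 1.63 CPM at day 0, a log2 fold change of 3.49 ± 0.23. BMP2 stood at 141 ± 4.38 CPM at day 1 in wild type, and the responses differed by -3.58 ± 0.35 (adjusted p = 1.47e-08). Of the other 10 ligands 6 were called lower, 4 of the 12 in all without PERK KO day 0 replicate 2, among them TGFB1 at 4.12, 6.11 and 4.27 CPM at day 1 and 10.1, 12.6 and 9.92 CPM at day 0.

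Of 10 inhibitors 6 were called lower and 1 higher, with or without that library. LEFTY1 and LEFTY2, feedback inhibitors that NODAL normally induces, fell, LEFTY1 to 12.4, 14.5 and 11.3 CPM at day 1, against 88.1, 210.2 and 85.0 CPM at day 0, and LEFTY2 to 2.88, 3.42 and 2.66 CPM at day 1, against 32.1, 51.7 and 32.4 CPM at day 0. FST, which binds activin, rose to 362, 354 and 362 CPM at day 1, against 4.20, 8.91 and 4.49 CPM at day 0 (log2 fold change 5.97 ± 0.24, adjusted p = 4.27e-18). Of 12 targets 4 were called higher and 6 lower, 4 and 5 without PERK KO day 0 replicate 2. With or without that library 8 had a lower log2 fold change than in wild type, with none higher. A lower response was called in 12.9% of all genes, 11.8% without that library. ID2, an inhibitor of basic helix-loop-helix factors, had 66.7, 65.9 and 71.9 CPM at day 1 and 7.71, 11.4 and 9.40 CPM at day 0 (log2 fold change 2.85 ± 0.16). Its relative ID1 had 36.7, 41.3 and 40.3 CPM at day 1 and 92.1, 255 and 78.4 CPM at day 0, and fell, with a log2 fold change of -1.84, or -1.11 without PERK KO day 0 replicate 2. The call of ID3 turned with the library: its log2 fold change was -0.69 ± 0.27 (adjusted p = 0.0373) with all 6 libraries and 0.15 ± 0.15 (adjusted p = 0.482) without PERK KO day 0 replicate 2.

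Targets of this class were among the genes that fell. CYR61 and CTGF, matricellular proteins that are also targets of YAP and TAZ, fell to 11.8, 11.9 and 11.7 CPM and 11.8, 13.1 and 14.1 CPM at day 1, against 181, 162 and 179 CPM and 132, 167 and 115 CPM at day 0. The falls exceeded those of wild type, with differences of -2.53 ± 0.47 for CYR61 and -1.30 ± 0.33 for CTGF (adjusted p = 0.000235 and 0.00458). Among the largest falls, outside the lists, SHISA2, which retains WNT and FGF receptors in the ER in the frog, had 0.509, 0.549 and 0.610 CPM at day 1 and 26.1, 21.7 and 23.4 CPM at day 0, and NGFR, a neurotrophin receptor, had 0.509, 1.53 and 0.827 CPM at day 1 and 38.0, 37.6 and 41.7 CPM at day 0. Their log2 fold changes were -5.39 ± 0.18 and -5.37 ± 0.27. EDAR, the ectodysplasin receptor, was among the largest rises, with 16.6, 17.5 and 15.8 CPM at day 1 and no count at day 0, at least 244-fold.

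In the FGF pathway FGF4 and FGF8 rose, FGF4 to 14.6, 15.6 and 15.9 CPM at day 1, against 0.864, 1.65 and 1.05 CPM at day 0, and the feedback phosphatase DUSP6 fell to 30.5, 33.6 and 37.4 CPM at day 1, against 194, 226 and 196 CPM at day 0 (log2 fold change -2.60 ± 0.16). The receptor FGFR2 fell little in PERK KO, to 44.6, 42.2 and 51.0 CPM at day 1, against 74.5, 50.5 and 66.8 CPM at day 0, with overlap between day 1 replicate 3 and day 0 replicate 2, and in a fit of the 6 libraries alone it was not called (adjusted p = 0.111). Wild type had 5.40 ± 0.298 CPM at day 1 and 77.4 ± 2.71 CPM at day 0, and the difference of responses, 3.36 ± 0.18, was the most significant of the positive ones (adjusted p = 4.58e-14). In the NOTCH pathway the ligand DLL1 rose by 2.77 on the log2 scale, and HES3, a transcriptional repressor, had 38.3, 38.5 and 30.1 CPM at day 1 and 4.81, 4.77 and 3.68 CPM at day 0 (log2 fold change 3.01 ± 0.31). HES3 was not called in wild type, with 2.29 ± 1.52 CPM at day 1 and 2.19 ± 1.40 CPM at day 0, and the responses differed by 2.96 ± 0.47 (adjusted p = 3.03e-05). JAG1 rose in PERK KO, to 65.4, 72.2 and 70.4 CPM at day 1, against 35.0, 19.9 and 34.1 CPM at day 0, and fell in wild type, with a difference of 1.83 ± 0.21 (adjusted p = 1.75e-07).

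Epithelial and mesenchymal genes both rose in part. CDH1, or E-cadherin, had 509, 469 and 496 CPM at day 1 and 245, 140 and 238 CPM at day 0, and CDH2, or N-cadherin, had 222, 226 and 207 CPM at day 1 and 93.1, 48.8 and 87.4 CPM at day 0. The log2 fold changes were 1.24 ± 0.16 for CDH1 and 1.51 ± 0.16 for CDH2, and that of CDH2 was below the wild-type one (difference -1.44 ± 0.22, adjusted p = 1.85e-05). The desmosomal gene DSP had 784, 747 and 791 CPM at day 1 and 129.5, 29.2 and 113 CPM at day 0, with day 0 replicate 2 lowest. Of 15 epithelial genes 5 were called higher and 4 lower, and of 15 mesenchymal genes 6 higher and 4 lower. Without PERK KO day 0 replicate 2 the numbers were 4 and 3, and 6 and 5. The shares over all genes were 18.0% higher and 25.1% lower, 14.9% and 19.0% without that library. Among further differences of response, LCP1, an actin-bundling protein, fell to 3.33, 3.48 and 3.61 CPM at day 1, against 19.9, 18.9 and 17.3 CPM at day 0, while it rose in wild type to 18.6 ± 2.85 CPM at day 1, against 7.62 ± 0.560 CPM at day 0 (difference -3.71 ± 0.27, adjusted p = 4.47e-11). NEDD9, a scaffold of cell adhesion signalling, likewise fell in PERK KO (log2 fold change -1.30 ± 0.21) and rose in wild type (2.20 ± 0.20), a difference of -3.49 ± 0.29 (adjusted p = 5.1e-10).

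Of the 54 genes on the 4 lists of the integrated stress response 31 were called lower and 3 higher at day 1, where 25.1% of all genes were called lower. Without PERK KO day 0 replicate 2 the numbers were 27 and 4, where 19.0% of all genes were called lower. Of 10 ISR transcription factors 7 were called lower and none higher (median log2 fold change -1.05), 5 and 0 without PERK KO day 0 replicate 2 (median -0.79). Of 23 amino acid and tRNA synthetase genes 12 were called lower and 1 higher, with or without that library. Of 12 other targets 10 were lower and none higher, 8 and 0 without it. In wild type 2 of the 10 factors were called lower and 3 higher, 4 and 5 of the 23, and 6 and 2 of the 12. There 23.7% of all genes were called lower and 20.9% higher. Against wild type the PERK KO response was called lower for 6, 9 and 5 members of these lists, and higher for 0, 1 and 0. Without PERK KO day 0 replicate 2 the numbers were 4, 10 and 4 lower and 0, 1 and 1 higher. Over all genes 12.9% were lower and 10.2% higher, 11.8% and 12.3% without it. In a fit of the 6 compared libraries alone 6 of the 12 other targets and 4 of the 18 ER chaperones described below were called lower. CHAC1, a glutathione-degrading enzyme induced by ATF4, fell to 14.0, 15.6 and 11.4 CPM at day 1, against 97.8, 181 and 99.2 CPM at day 0 (log2 fold change -3.20 ± 0.24, adjusted p = 8.63e-12). The highest day 0 value was that of replicate 2, and the log2 fold change without it was -2.84 ± 0.21. ATF4 itself had 422, 463 and 415 CPM at day 1 and 517, 1070 and 556 CPM at day 0, and its call was lost without replicate 2 (adjusted p = 0.00186 with it and 0.0625 without).

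ATF3, a factor downstream of ATF4, had 18.6, 16.6 and 19.4 CPM at day 1 and 40.6, 37.8 and 44.8 CPM at day 0. PPP1R15A, the stress-induced subunit of the eIF2 phosphatase, had 21.2, 20.4 and 20.0 CPM at day 1 and 40.5, 43.3 and 41.8 CPM at day 0. Both fell in PERK KO (log2 fold changes -1.17 ± 0.17 and -1.03 ± 0.17) and rose in wild type (0.62 ± 0.17 and 1.04 ± 0.17), with differences of -1.80 ± 0.25 (adjusted p = 3.35e-06) and -2.07 ± 0.23 (adjusted p = 1.72e-07). CEBPB, SESN2 and JDP2 fell, with log2 fold changes of -1.93, -1.91 and -1.69. Of the serine and folate enzymes, PSAT1 had 321, 279.6 and 324 CPM at day 1 and 468, 546 and 467 CPM at day 0, and MTHFD2 had 199, 196 and 242 CPM at day 1 and 363, 489 and 367 CPM at day 0. The member called higher was the tryptophanyl-tRNA synthetase WARS, at 195, 207 and 187 CPM at day 1 and 131, 141 and 139.8 CPM at day 0, less of a rise than in wild type (difference -1.05 ± 0.21, adjusted p = 0.00038). Of 9 amino acid transporters of the ISR 2 were called higher and 2 lower, 3 and 2 without PERK KO day 0 replicate 2 (median log2 fold change 0.04). SLC7A5 and SLC7A11 rose, by 1.05 and 1.33 on the log2 scale, and SLC7A3 and SLC1A5 fell, with log2 fold changes of -1.19 and -0.60.

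Of 17 genes of the IRE1 and ATF6 arms of ER stress signalling 6 were called lower and 2 higher, with or without PERK KO day 0 replicate 2. Of 18 ER chaperones and folding enzymes 9 were called lower and 1 higher, both with and without that library. Against wild type 9 had a lower response and none a higher one, 10 and 0 without that library. A lower response was called in 12.9% of all genes, 11.8% without that library. In wild type 3 of the 18 were called higher and none lower. HSPA5, or BiP, the main ER chaperone, fell to 371, 399 and 352 CPM at day 1, against 708, 1174 and 669.7 CPM at day 0 (log2 fold change -1.19 ± 0.19). Wild-type levels were 539.7 ± 41.3 CPM at day 1 and 438 ± 32.5 CPM at day 0, and the responses differed by -1.49 ± 0.26 (adjusted p = 0.000105). XBP1, the factor spliced by the sensor IRE1, had 70.6, 76.7 and 65.0 CPM at day 1 and 209, 456 and 231 CPM at day 0, with day 0 replicate 2 highest. Its log2 fold change was -2.08 ± 0.19 with all 6 libraries and -1.63 ± 0.13 without that one, and it differed from the wild-type response by -1.88 ± 0.27 (adjusted p = 5.06e-06). SDF2L1, a partner of BiP, depended on 1 library for its size: it had 16.6, 16.9 and 13.3 CPM at day 1 and 29.1, 111 and 29.0 CPM at day 0, a log2 fold change of -1.85 ± 0.33 with all libraries and -0.90 ± 0.22 without replicate 2. Among the eIF2 kinases, EIF2AK4, the amino acid sensor GCN2, fell to 108, 112 and 108 CPM at day 1, against 262, 186 and 259 CPM at day 0, as it did in wild type (106 CPM at day 1, 217 CPM at day 0).

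The promoters of 2 falling genes that hold a known ATF4 motif are shown in the same window. Capitals mark the letters TGATGCAA or TGATGAAA on either strand. CHAC1 is at chr15:40953221-40953470 and HERPUD1, an ER membrane protein of protein degradation, at chr16:56931892-56932141, both on the plus strand.
CHAC1: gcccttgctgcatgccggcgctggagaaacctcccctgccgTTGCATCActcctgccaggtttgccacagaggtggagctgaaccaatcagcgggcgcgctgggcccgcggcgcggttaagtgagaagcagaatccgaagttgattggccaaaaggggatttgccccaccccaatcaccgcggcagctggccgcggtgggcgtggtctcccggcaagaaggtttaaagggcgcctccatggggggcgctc
HERPUD1: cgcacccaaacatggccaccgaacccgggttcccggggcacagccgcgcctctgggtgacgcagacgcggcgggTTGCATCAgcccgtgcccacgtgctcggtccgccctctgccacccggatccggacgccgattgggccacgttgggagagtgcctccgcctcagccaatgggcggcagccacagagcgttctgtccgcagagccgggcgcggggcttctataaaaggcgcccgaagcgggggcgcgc
The match starts 209 bases before the start site in CHAC1 and 176 in HERPUD1. These letters occurred in 1.72% of all RefSeq promoters, in 3 of the 11 promoters of other ISR targets matched, in 3 of the 17 of amino acid and tRNA genes, in none of the 9 of ISR transcription factors and in none of the 7 of ISR transporters. HERPUD1 had 8.65, 7.88 and 7.45 CPM at day 1 and 21.2, 28.8 and 21.1 CPM at day 0 (log2 fold change -1.56 ± 0.20).

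Targets of p53 fell almost as a whole. Of 16 measured genes 15 were called lower and none higher, with or without PERK KO day 0 replicate 2, at a median log2 fold change of -1.31 (-1.18 without it), where 25.1% of all genes were called lower. In wild type 10 of the same 16 were called lower and none higher. GDF15, a secreted stress cytokine that also counts among the ISR targets, had 2.15, 1.53 and 2.66 CPM at day 1 and 24.4, 34.2 and 23.5 CPM at day 0. CDKN1A, the cell cycle inhibitor p21, had 29.9, 29.8 and 35.4 CPM at day 1 and 81.6, 138 and 109 CPM at day 0, and BBC3, a BH3-only activator of apoptosis, 9.95, 11.5 and 9.71 CPM at day 1 and 32.2, 61.1 and 34.3 CPM at day 0. In all 3 every day 1 library lay below every day 0 library. The fall of CDKN1A, -1.79 ± 0.20, was smaller than in wild type (difference 1.28 ± 0.28, adjusted p = 0.00131). SESN1 and GADD45A fell further than in wild type, with differences of -1.05 ± 0.18 and -1.75 ± 0.27 (adjusted p = 0.00011 and 1.52e-05).

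Metabolic genes went both ways. PDK1, a kinase that inhibits pyruvate dehydrogenase, had 357, 304 and 418 CPM at day 1 and 62.6, 47.8 and 59.5 CPM at day 0 (log2 fold change 2.67 ± 0.16), and the mitophagy receptor BNIP3 had 212, 181 and 257 CPM at day 1 and 38.7, 54.0 and 35.0 CPM at day 0 (2.35 ± 0.14). HK1, the hexokinase of the first glycolytic step, fell to 144, 162 and 160.4 CPM at day 1, against 528, 429 and 551 CPM at day 0. Of 23 glycolysis and hypoxia genes 5 were called higher and 9 lower, 4 and 6 without PERK KO day 0 replicate 2. In wild type 5 of them were called higher and 8 lower. The shares over all genes in PERK KO were 18.0% higher and 25.1% lower, 14.9% and 19.0% without that library. Of 9 metallothionein list members 8 passed the filter, and 6 were called lower and 1 higher, 4 and 0 without it.

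**Figure D3:**
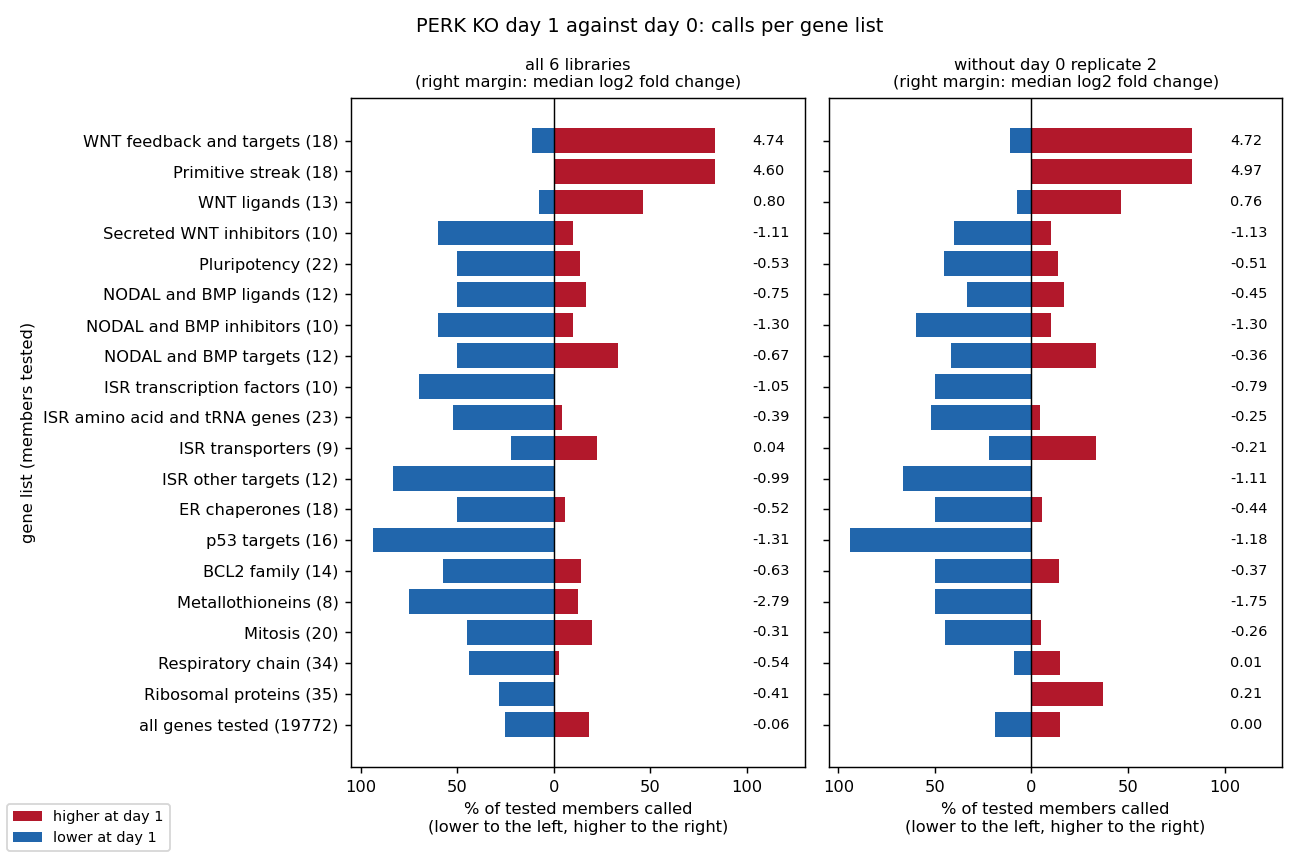
Share of tested members called higher (to the right) or lower (to the left) at day 1 against day 0 in PERK KO for 19 lists and all genes, with the median log2 fold change at the right margin, for all 6 libraries and without day 0 replicate 2. The WNT feedback, streak, p53 and ER chaperone bars are alike in both panels, while the bar of the ribosomal proteins lies on the lower side with all libraries and on the higher side without replicate 2.

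The dependence on PERK KO day 0 replicate 2 varied with transcript length. Among genes of at least 5 CPM, sorted by effective length into 5 bins, that library was above the mean of the other day 0 replicates by a median log2 difference of 0.98 in the shortest bin (median 855 nt) and below it by a median of -0.85 in the longest (median 5152 nt). The day 1 libraries deviated from each other by medians of -0.08 to 0.07 in any bin. With all 6 libraries the shortest bin of 2386 genes had 194 called higher and 1149 lower, and the longest bin of 2386 had 829 higher and 292 lower. Without replicate 2 the same bins had 374 higher and 507 lower, and 506 higher and 437 lower. An offset for effective length in the fit left the shortest bin at 209 higher and 1062 lower. The cause of the length difference was not tested.

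**Figure D4:**
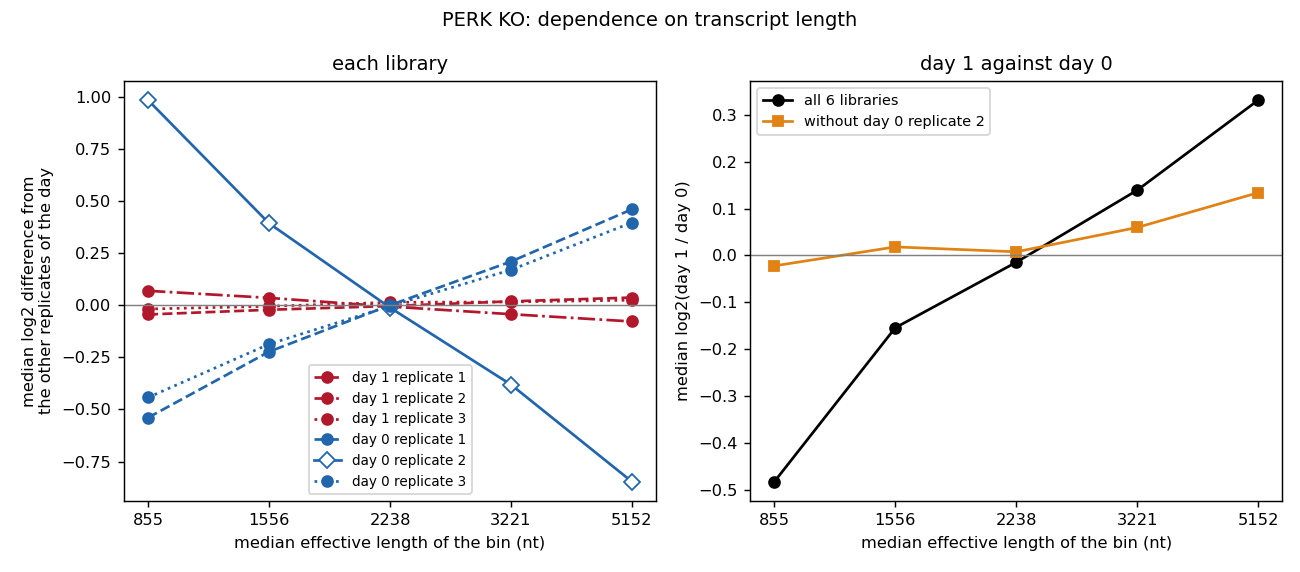
Left, median log2 difference of each PERK KO library from the mean of the other replicates of its day, by bin of effective length. Right, median log2 fold change of day 1 over day 0 by bin, with all 6 libraries and without day 0 replicate 2. That library runs from 0.98 to -0.85, and the slope on the right shrinks without it.

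Counts for the ribosomal protein and respiratory chain lists turned with this library. Of 35 ribosomal protein genes, which encode the ribosome's own subunits, 10 were called lower and none higher with all 6 libraries (median log2 fold change -0.41), and 13 higher and none lower without replicate 2 (median 0.21). Without PERK KO day 0 replicate 1 or 3 the number called lower was 24 and 22, and in a fit of the 6 libraries alone it was 0. RPS19, which has processed copies that can share reads, had 616, 719 and 706 CPM at day 1 and 701, 3988 and 780.4 CPM at day 0, with replicate 2 standing above the other day 0 libraries. Its log2 fold change was -1.42 ± 0.37 (adjusted p = 0.00246) with and -0.12 ± 0.20 (adjusted p = 0.694) without that library. Of 34 respiratory chain genes 15 were called lower and 1 higher with all libraries (median -0.54), and 3 lower and 5 higher without it (median 0.01). The number called lower was 25 without day 0 replicate 1, 24 without day 0 replicate 3 and 0 in the fit of the 6 libraries alone. UQCRQ, a subunit of complex III, had 33.2, 36.3 and 29.4 CPM at day 1 and 38.7, 246 and 50.5 CPM at day 0, and lost its call (adjusted p = 0.0802). SDHB, the iron-sulfur subunit of complex II, had 44.4, 44.8 and 41.1 CPM at day 1 and 62.5, 183 and 64.8 CPM at day 0 and was called lower both ways, with log2 fold changes of -1.25 ± 0.23 and -0.54 ± 0.12.

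Long transcripts lost calls on the other side. VPS13C, a large lipid transfer protein, had 75.6, 55.2 and 65.7 CPM at day 1 and 30.3, 8.63 and 27.7 CPM at day 0, and KDM7A, a histone demethylase, 49.4, 42.0 and 54.7 CPM at day 1 and 23.8, 4.59 and 21.9 CPM at day 0. Both were called higher with all libraries (adjusted p = 0.0071 and 0.00651) and not without replicate 2 (0.0606 and 0.0569). Other calls appeared only once the library was left out. The respiratory chain subunit COX6C had 54.5, 57.2 and 50.7 CPM at day 1 and 27.6, 71.2 and 25.1 CPM at day 0, and was called higher without replicate 2 (log2 fold change 1.04 ± 0.21, adjusted p = 0.000299) but not with it (adjusted p = 0.209). NQO2, a quinone reductase, gave 1.07 ± 0.17 without it (adjusted p = 8.03e-06) and 0.47 ± 0.23 with it (adjusted p = 0.101). In all, 2544 calls were lost without the library and 882 gained among the genes tested both ways.

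Placed on the line from the wild-type day 0 mean, at 0, to the wild-type day 1 mean, at 1, PERK KO day 1 libraries lay at 0.757, 0.765 and 0.745, and PERK KO day 0 libraries at 0.230, 0.138 and 0.219. The line used 5073 genes that differed by at least 1 in mean log2 CPM between the wild-type days. All PERK KO day 1 libraries lay below the wild-type day 1 libraries (0.990 to 1.01), and all PERK KO day 0 libraries above the wild-type day 0 ones (-0.00678 to 0.00629). Over the 2140 genes that rise along the line, PERK KO day 1 averaged 0.713 ± 0.0116 and day 0 0.155 ± 0.0728 (SD, n = 3 each), and over the 2933 that fall, 0.804 ± 0.00965 at day 1 and 0.243 ± 0.0267 at day 0. The position is a description of these libraries, since the wild-type libraries chose the genes and defined the line. Their own places near 0 and 1 follow from that choice, and libraries outside it tend to lie between them. How much of the order comes from the choice was not tested.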

How the data were processed

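RNA-seq was made from total RNA with an mRNA library kit, per the labels' protocols. The authors deposited RSEM expected counts per gene and library, as 1 matrix, and TPM in 1 file per library. The submitters' processing notes name CASAVA, FastQC, STAR and RSEM with GRCh38. The sources used here give neither their versions nor whether counting used strand.

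Expected counts were rounded and fitted with edgeR 4.0.16 in R 4.3.3 (TMM, filterByExpr, quasi-likelihood F test, BH adjustment over 19772 genes, threshold 0.05). All 36 libraries in 12 groups shared 1 estimate of the spread, with 24 residual degrees of freedom. Standard errors are approximate, the absolute log2 fold change over the root of F. Gene positions are those of the GENCODE annotation (GRCh38). Levels are CPM over TMM-scaled library sizes, and the deposited TPM were used for markers. A response difference is the PERK KO contrast minus the wild-type contrast. Folds against a group at 0 use a floor of 3 counts over the group. Intervals and floors cover counting error only. Depth was 14.0 M to 22.1 M counts in the 6 libraries. The scripts were tested on simulated data.

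The comparison, its gene lists and the tests were chosen with earlier results of these data known. A gene could be named if it was EIF2AK3; among the 12 calls with the largest rise, and 12 with the largest fall (protein-coding, at least 5 CPM in 1 group, no overlap of the days); a member of the WNT, streak, pluripotency, NODAL and BMP or ISR lists; among the 4 members with the smallest p of another list; among the 6 most significant response differences in each direction; or among the 6 largest changes in each direction whose call was gained or lost without PERK KO day 0 replicate 2. Genes that share reads with copies were left out, apart from POU5F1, NANOG and RPS19, which were named with their values known. Alternatives were RLE scaling, DESeq2 1.42.0, no filter, a stricter filter, a length offset, fewer libraries, a replicate block and leaving out each library. Some genes are not reported here. The main fit did not pair libraries by replicate number, and whether those numbers mark pairs is not known. Figures were drawn with matplotlib 3.10.9.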

Additional observations from a re-analysis of the deposited data

Results flagged for a closer look

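Among the genes named here, 76 had a day 1 response that differed between PERK KO and wild type by edgeR's test of the difference itself (adjusted p under 0.05, BH over 19772 genes, of which 23.1% were called). Values are differences of log2 fold change, PERK KO minus wild type, negative where the PERK KO response was lower.

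In the WNT pathway the difference was 3.66 for WNT10B, 2.17 for ROR1, 2.85 for TCF7L1, 1.57 for FZD5, 1.54 for SFRP1, 1.52 for FZD7, 1.36 for FZD1 and 0.73 for MYC. It was -5.22 for DKK1, -4.26 for WNT5A, -1.74 for WNT3, -1.64 for BAMBI, -1.58 for WNT5B, -1.33 for DKK3, -1.18 for AXIN2 and -0.94 for CTNNB1.

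Streak and mesoderm genes all differed downwards: -8.21 for MESP1, -5.99 for FGF17, -3.91 for GATA4, -3.16 for APLNR, -2.02 for CER1, -1.92 for MIXL1, -1.66 for TBX6, -1.20 for SP8, -1.07 for NODAL and -0.95 for SNAI1. Pluripotency genes differed upwards by 4.29 for SOX2, 2.75 for KLF4, 1.98 for PODXL, 0.99 for NANOG and 0.76 for SALL4, and downwards by -1.18 for ZFP42.

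For NODAL, BMP and TGF-beta genes the difference was -3.58 for BMP2, -2.53 for CYR61, -2.26 for ID1, -1.58 for TGFB1, -1.30 for CTGF and -1.17 for LEFTY1. For FGF and NOTCH genes it was 3.36 for FGFR2, 2.96 for HES3, 1.83 for JAG1, 1.03 for DUSP6 and -2.20 for FGF4. It was -3.71 for LCP1, -3.49 for NEDD9, -1.44 for CDH2, -1.25 for NGFR and 0.96 for SHISA2. For neural, apoptosis, mitosis and cholesterol genes it was 1.19 for ZIC2, 0.82 for BCL2L11, -1.41 for CCNB1, -1.19 for OTX2, -1.10 for BID, -0.98 for FDFT1 and -0.70 for TPX2.

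Stress genes differed downwards: -2.37 for CHAC1, -2.07 for PPP1R15A, -1.97 for SDF2L1, -1.88 for XBP1, -1.80 for ATF3, -1.49 for HSPA5, -1.34 for HERPUD1, -1.29 for CEBPB, -1.11 for PSAT1, -1.05 for WARS, -1.05 for MTHFD2, -0.89 for JDP2, -0.85 for SESN2 and -0.71 for ATF4. For EIF2AK3 it was 0.82. For p53 and mitochondrial genes it was 1.28 for CDKN1A, -1.75 for GADD45A, -1.05 for SESN1, -1.90 for UQCRQ, -1.17 for SDHB and -0.55 for BNIP3.

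Without PERK KO day 0 replicate 2 the difference was no longer called for 8 of these 76 genes, with adjusted p of 0.219 for ATF4, 0.171 for BNIP3, 0.0597 for DKK1, 0.112 for EIF2AK3, 0.0596 for FDFT1, 0.147 for LEFTY1, 0.305 for NODAL and 0.101 for UQCRQ. It stayed called but moved by over 1.5 times for BID (-0.54 without that library), SDF2L1 (-1.02) and SDHB (-0.47), and for FGF17 without wild type day 0 replicate 3 (-9.46). Leaving out another single library of the 12 also ended the call for MYC, NGFR, SHISA2 or WNT10B. For ATF4, BNIP3, EIF2AK3, LEFTY1 and NODAL, of the 8 above, leaving out some other single libraries ended it as well.

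An offset for effective length ended 10 of the calls, with differences of 0.21 for BCL2L11, -0.26 for BNIP3, -0.38 for CTNNB1, 0.29 for EIF2AK3, -0.69 for JDP2, 1.07 for NANOG, -1.01 for NODAL, -0.59 for SP8, -1.22 for UQCRQ and -0.99 for WNT5B. A fit of the 12 libraries of days 0 and 1 ended 8, those of ATF4, BID, BNIP3, FDFT1, LEFTY1, NODAL, SDHB and UQCRQ, and with a replicate block also those of EIF2AK3, SHISA2 and SP8, 11 in all. With no filter on low counts those of BNIP3 and SHISA2 were not made. The call of NODAL was not made with a stricter filter or with a replicate block in the 36-library fit.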

How the results depend on the processing

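Leaving out 1 library at a time gave 6903 to 8876 genes called between day 1 and day 0 (2951 to 3657 higher, 3866 to 5219 lower, 3308 to 5021 of at least 2-fold), and 3585 to 4907 differences of response (1591 to 2506 higher, 1994 to 2777 lower, 2293 to 3048 of at least 2-fold). The lists gave 15 WNT feedback genes higher each time, 14 to 15 streak genes higher, and as lower calls 10 to 11 pluripotency, 14 to 15 p53, 9 ER chaperone, 5 to 7 ISR factor, 8 to 13 amino acid and tRNA, 8 to 11 other ISR, 3 to 25 respiratory chain and 0 to 24 ribosomal protein genes, with 0 to 13 ribosomal protein genes higher. The mean position of PERK KO day 1 was 0.7507 to 0.7606, and 0.7449 over genes that differed by at least 2 log2 CPM.

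A fit of only the 6 compared libraries called 4268 genes (1964 higher, 2304 lower, 2862 of at least 2-fold), 4 ER chaperones, 6 other ISR targets, 0 respiratory chain and 0 ribosomal protein genes lower. With a replicate block it called 3281 (1560 higher, 1721 lower, 2495 of at least 2-fold), with 4 ER chaperones, 4 ISR factors, 3 amino acid and tRNA genes, 6 other ISR targets, 0 respiratory chain and 0 ribosomal protein genes lower. The block in the 36-library fit gave 8601 calls, and in a fit of the 12 libraries of days 0 and 1 it gave 1562 lower differences of response. The deviations of same-numbered libraries from their group means correlated at 0.0451, 0.0518 and 0.0059, and day 1 replicate 3 correlated best with day 0 replicate 1 (0.0242). Such deviations, with PERK KO day 0 replicate 2 standing apart, cannot exclude a pairing.

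The fit of the 5 libraries without PERK KO day 0 replicate 2, chosen after seeing the data, called 9171 genes (4613 higher, 4558 lower, 3156 of at least 2-fold) and gave 4 respiratory chain and 1 ribosomal protein gene lower and 15 ribosomal protein genes higher. The effective length offset gave 7692 calls, with 16 ribosomal protein genes lower and 2 higher, and 1 was higher with no filter on low counts and 1 with a stricter one. The log2 fold change of CTNNB1 became 0.28 with the length offset, and that of ID3 ran from -0.98 to 0.15 with 1 library left out (0.15 without PERK KO day 0 replicate 2) and was 0.15 in the fit of 5 libraries. DESeq2 gave 8839 calls and RLE scaling 8518, and under both every result for a named gene kept its direction and its side of the threshold. The causes of the other shifts were not tested.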

Other observations

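List counts in this section stand beside 18.0% of all genes called higher and 25.1% lower, or 14.9% and 19.0% without PERK KO day 0 replicate 2. Genes of DNA methylation, of which 9 were tested, were called higher for 5 and lower for 1 (3 and 2 without PERK KO day 0 replicate 2). DNMT3B, a de novo methyltransferase, fell to 497, 522 and 499 CPM at day 1, against 1301, 787 and 1266 CPM at day 0, with the day 0 level lowest in replicate 2. UHRF1, which guides maintenance methylation, rose to 69.7, 93.1 and 60.3 CPM at day 1, against 33.3, 25.6 and 33.6 CPM at day 0, and the demethylase TET3 rose by 1.21 on the log2 scale. In the BCL2 family, 8 of 14 genes were called lower and 2 higher (7 and 2 without that library). BCL2L11, the apoptosis activator BIM, rose to 60.6, 50.4 and 60.0 CPM at day 1, against 19.6, 11.9 and 19.3 CPM at day 0, while BID fell to 16.6, 19.5 and 16.4 CPM at day 1, against 27.1, 71.3 and 31.5 CPM at day 0.

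Of 20 mitosis genes 9 were called lower and 4 higher, 9 and 1 without PERK KO day 0 replicate 2. CCNB1, or cyclin B1, fell to 216, 222 and 230.2 CPM at day 1, against 339, 580 and 349 CPM at day 0, and TPX2, a spindle assembly factor, to 406, 351 and 417 CPM at day 1, against 696, 569.5 and 722 CPM at day 0. Of 22 DNA replication genes 5 were called higher and 5 lower, where 18.0% and 25.1% of all genes were called so. Without that library the numbers were 5 and 2, where the shares were 14.9% and 19.0%. The helicase subunit MCM3 had 526, 605 and 544 CPM at day 1 and 369, 409 and 362 CPM at day 0. Of 14 neuroectoderm genes 3 were called higher and 7 lower, 3 and 3 without that library. The homeobox gene OTX2 had 10.4, 9.65 and 13.1 CPM at day 1 and 30.6, 31.9 and 28.7 CPM at day 0, and ZIC2, a zinc-finger factor, had 205, 192 and 213 CPM at day 1 and 102, 90.9 and 96.2 CPM at day 0. Of 18 cholesterol synthesis genes 2 were called higher and 6 lower, 2 and 5 without it. FDFT1, or squalene synthase, fell to 241, 267 and 266 CPM at day 1, against 556, 1341 and 619.7 CPM at day 0, where replicate 2 was highest. All these genes passed the test of day 1 against day 0 in edgeR (adjusted p under 0.05, BH) with and without that library.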
